A study of Mus musculus with 18 samples.

Results

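The genes described here are the protein-coding genes of mouse chromosome 14 whose start lies between 60 and 80 Mb and whose mean over all libraries reached 1 FPKM (fragments per kilobase of gene length, scaled by the number of reads in the library). The segment holds 178 protein-coding genes of any level in a table of 54532 genes. Of these, 64 lay under the mean of 1 FPKM, 8 were left out by name (Gata4, Sox7, Tdh, Rb1, Fdft1, Stmn4, Nefl and Piwil2), and the remaining 106 are called members. The segment was selected because its genes were low in the Arf lines, so the ratio of an Arf line to Ctrlv2 is given as a description, without a test.

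RNA was sequenced from 18 libraries of ES-E14TG2a cells, a line of mouse embryonic stem cells derived from a blastocyst. Cells called Ctrlv2, Arf-B and Arf-C were each sampled at day 0 and at day 8, with 3 replicates in each of the 6 groups. The cells received activin A (20 ng/mL) on Matrigel from day 0, and from day 4 to day 8 FGF10 (10 ng/mL) together with retinoic acid, for which the labels print 5 μM/ml. The title of the series speaks of p19Arf and of the pancreatic lineage. As genotype the labels give wild type for every group, Ctrlv2, Arf-B and Arf-C alike. Both the making of the Arf lines and whether each is 1 clone are not given in the sources used here. Nothing states that replicates were separate cultures, so p-values measure only the spread between these samples, which may be technical.

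Genes that are neighbours on a mammalian chromosome seldom share a function, and each has its own promoter. The segment is such a mixture: it encodes secreted proteins and receptors, enzymes of metabolism, regulators of cell division, and single subunits of nuclear complexes whose other subunits come from genes elsewhere in the genome. In differentiating embryonic stem cells, genes of the pluripotent state are shut off while genes of the new lineages are switched on, and members of the segment take part in both changes. In bulk RNA, fewer cells of a type and less RNA per cell cannot be told apart.

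The promoter sequences of 4 members show the kinds of start sites that lie side by side in the segment. Cog3 and Zc3h13 lay at close to the median ratio on both days, Ints6 changed its ratio between the days, and Lpar6 had all 4 ratios above -0.5. Each sequence is the 250 bases before the annotated start, 5′ to 3′ on the gene's strand, from RefSeq (GRCm38.p6, the mm10 assembly), with every CG dinucleotide in capitals. Ints6, a subunit of Integrator, lies at chr14:62761113-62761362 on the minus strand (17 CG). Lpar6, a receptor for lysophosphatidic acid, lies at chr14:73237641-73237890 on the plus strand (1 CG). Zc3h13, a subunit of the complex that methylates adenosine in mRNA, lies at chr14:75284123-75284372 on the plus strand (23 CG). Cog3, a subunit of the Golgi tethering complex, lies at chr14:75754494-75754743 on the minus strand (22 CG).
Ints6: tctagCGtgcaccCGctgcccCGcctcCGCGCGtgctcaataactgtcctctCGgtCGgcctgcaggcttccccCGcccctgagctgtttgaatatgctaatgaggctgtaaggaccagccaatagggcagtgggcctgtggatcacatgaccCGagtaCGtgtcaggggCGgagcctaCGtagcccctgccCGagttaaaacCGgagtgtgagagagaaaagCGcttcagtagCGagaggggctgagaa
Lpar6: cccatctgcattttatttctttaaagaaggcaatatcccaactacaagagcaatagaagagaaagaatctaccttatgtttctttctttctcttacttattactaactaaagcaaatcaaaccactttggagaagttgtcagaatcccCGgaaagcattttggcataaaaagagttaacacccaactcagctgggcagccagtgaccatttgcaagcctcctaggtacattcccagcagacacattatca
Zc3h13: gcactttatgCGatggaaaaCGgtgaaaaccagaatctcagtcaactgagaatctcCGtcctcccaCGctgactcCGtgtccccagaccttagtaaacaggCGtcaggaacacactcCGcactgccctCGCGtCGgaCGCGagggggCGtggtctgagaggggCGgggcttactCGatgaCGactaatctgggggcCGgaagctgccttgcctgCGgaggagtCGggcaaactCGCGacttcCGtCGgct
Cog3: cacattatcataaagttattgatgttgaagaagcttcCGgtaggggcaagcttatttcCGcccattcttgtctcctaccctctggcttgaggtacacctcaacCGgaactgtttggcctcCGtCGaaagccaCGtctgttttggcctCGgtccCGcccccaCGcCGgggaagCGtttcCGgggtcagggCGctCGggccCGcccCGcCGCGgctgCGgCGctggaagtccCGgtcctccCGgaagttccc
Promoters of 40 of the 106 members were matched. Of these, 11 belong to members that start up to 62.84 Mb and 29 to members from 73.03 Mb on, so they describe the ends of the segment and none of the 59 members between. At least 10 CG were present in 31 of the 40 (77.5%). The share was 78.1% over the 8966 matched promoters of protein-coding genes at a mean of 1 FPKM or more, the level the members had to reach, and 38.2% over all 27025 promoters. Among members whose 4 ratios all lay from -1.5 to -0.5 (log2), 14 of 18 had at least 10 CG, with a range of 1 to 38. Among members with all 4 ratios above -0.5 the count was 1 of 4, and among those with all 4 below -1.5 it was 2 of 3. The motif searched was CG, which reads the same on both strands, and the counts describe these windows only.

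Over the 106 members the median ratio of Arf-B to Ctrlv2 was -1.07 at day 0 and -0.98 at day 8 on the log2 scale of group mean FPKM, which is 0.476 and 0.506 on the linear scale. For Arf-C the medians were -1.05 and -0.96, or 0.483 and 0.514. Both lines were divided by the same 3 Ctrlv2 libraries at each day, so their ratios share that denominator. Taking 1 replicate of each line at a time moved the medians no further than -1.13 and -0.97. Each Ctrlv2 library against the other 2 of its day gave medians from -0.02 to 0.05. All 11386 protein-coding genes at a mean of 1 FPKM had medians of 0.01 and 0.00 for Arf-B and 0.02 and 0.00 for Arf-C.

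The spread between members was wider at day 0 than at day 8. Over members the SD in Arf-B was 0.814 at day 0 and 0.550 at day 8, with 0.819 and 0.562 for Arf-C. A wider spread at day 0 was not particular to the members. Over the 11386 protein-coding genes, members included, the Arf-B SD went from 0.662 to 0.578 and the Arf-C SD from 0.708 to 0.584. For chromosome 14 genes from 50 to 60 Mb these SDs went from 0.547 to 0.378 and from 0.584 to 0.396. For those after 110 Mb they rose instead, from 1.10 to 1.29 and from 1.08 to 1.37. The middle 50% of members in Arf-B lay between -1.52 and -0.71 at day 0, and between -1.30 and -0.79 at day 8. All 4 ratios lay under 0 for 95 members and over 0 for 2 (Gm49336 and Tnfrsf19). By the limma fit used for the tests, 92 members were called lower and 3 higher in Arf-B at day 0, against 20.0% and 19.1% of all 17200 genes tested. At day 8 the counts for Arf-B were 95 and 2, against 16.9% and 16.3%. For Arf-C they were 92 and 3 at day 0 (21.5% and 21.2% of all genes) and 95 and 3 at day 8 (16.8% and 16.8%). The members were chosen on these comparisons, so nothing is read from the counts.

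By position, the low ratios set in at Ebpl. The first 6 members by position, among them Mtmr6, Mipep and Tnfrsf19, start from 60.21 to 61.14 Mb and had median ratios of -0.07 and 0.08 in Arf-B cells and 0.06 and 0.13 in Arf-C, at day 0 and day 8. From Ebpl (61.33 Mb) on, the 100 members had medians of -1.12 and -0.99 in Arf-B cells and -1.06 and -0.98 in Arf-C. The 96 protein-coding genes that start from 50 to 60 Mb had medians of 0.02 and 0.03 in Arf-B cells and 0.04 and 0.04 in Arf-C. Past 80 Mb the 23 genes up to 110 Mb lay at -0.66 and -0.70 in Arf-B cells and -0.63 and -0.73 in Arf-C. The 22 genes after 110 Mb lay at 0.15 and 0.08, and at 0.18 and 0.12. Ebpl was taken as the boundary after the values were seen.

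**Figure D1:**
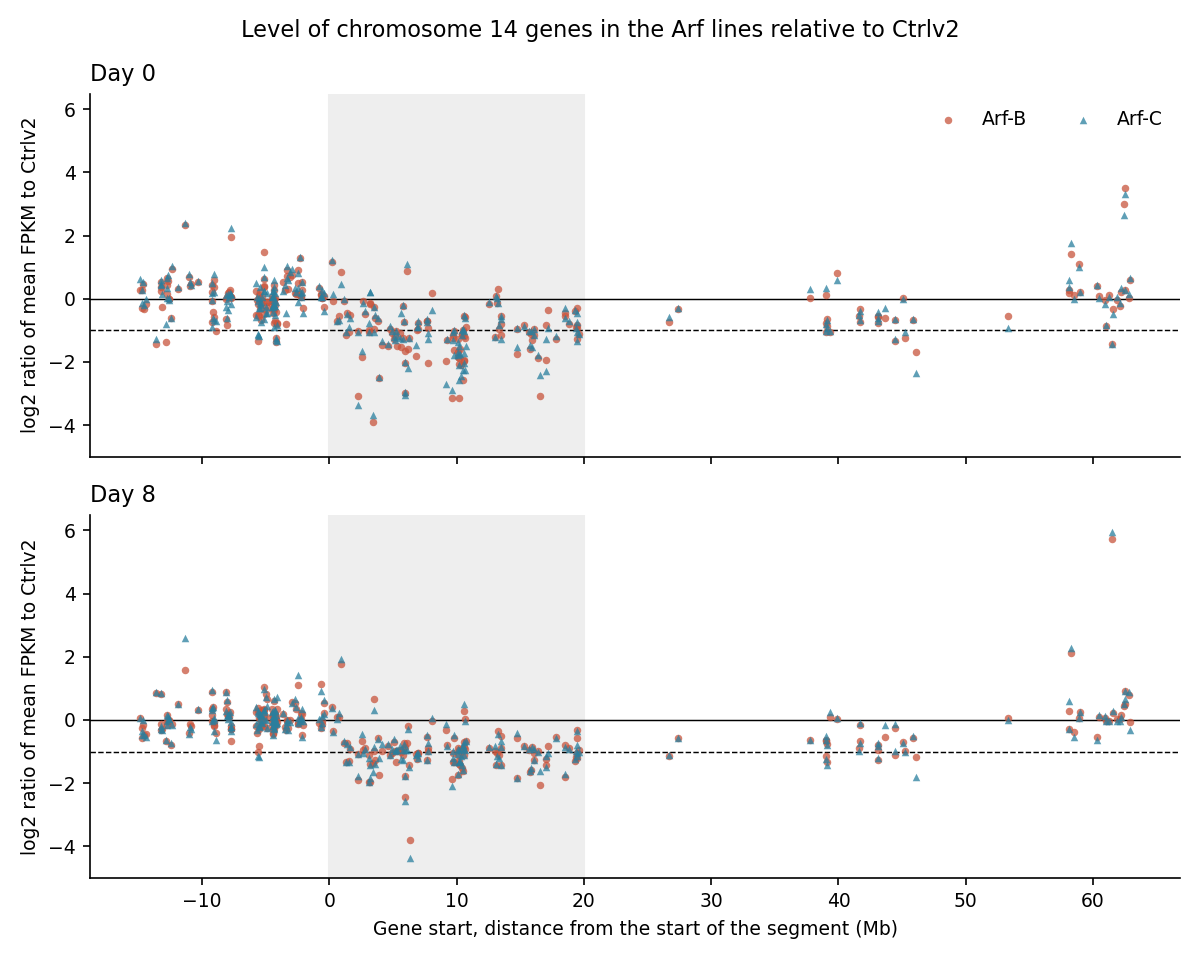
Log2 ratio of group mean FPKM (Arf-B and Arf-C over Ctrlv2) against gene start, as distance in Mb from the start of the segment, for protein-coding genes of chromosome 14 at a mean of 1 FPKM, with 1 panel per day. The segment is shaded and the dashed line marks -1. The first 6 members sit around 0 and most of the other 100 around -1, with a wider scatter at day 0.

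The bounds of the rule cut through genes of different kinds. Just before 60 Mb, Cdadc1 had ratios of 0.09 and 0.23 in Arf-B and Shisa2 had -0.26 and 0.55, at day 0 and day 8. Just inside, Gm49336 had 1.16 and 0.43 and Mtmr6 had -0.07 and -0.34. At the far end, Elf1 (-1.28 and -1.05) and Sugt1 (-1.13 and -0.95) were the last members, and the next genes outside were Diaph3 (-0.73 and -1.15) and Tdrd3 (-0.34 and -0.58). By level, Scara5 (1.29 FPKM) and Hr (1.30 FPKM) were the lowest members, and C1qtnf9 (0.708 FPKM) and Kcnrg (0.667 FPKM) lay just outside. C1qtnf9 averaged 4.12 FPKM in Ctrlv2 at day 0, 0.0196 in Arf-B cells and 0.00601 in Arf-C.

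For a gene-by-gene account, members were sorted by their 4 log2 ratios. In 52 members all 4 lay from -1.5 to -0.5, which is called following below. In 5 all 4 lay above -0.5, in 8 all 4 lay below -1.5, and the remaining 41 were mixed. Leaving out 1 library at a time gave 48 to 53, 4 to 5 and 7 to 9 members in the first 3 classes. By level, following members made up 8 of 21 at a mean of 1 to 3 FPKM, 16 of 42 at 3 to 10, 21 of 30 at 10 to 30, and 7 of 13 at 30 or more. Across members the ratio at day 0 and at day 8 had a Pearson r of 0.485 in Arf-B cells and 0.341 in Arf-C (Spearman rho 0.322 and 0.196, n = 106), given as a description, since the points share libraries.

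Members that followed on both days included housekeeping subunits with little change in time. Cog3 measured 22.6, 23.2 and 22.7 FPKM in Ctrlv2 at day 0 and 23.5, 23.0 and 25.9 at day 8. It measured 11.2, 11.3 and 10.6 in Arf-B at day 0 and 12.4, 13.1 and 12.0 at day 8, and 11.8, 10.98 and 11.4, then 12.7, 12.9 and 12.9, in Arf-C. Every Arf library lay below every Ctrlv2 library, with ratios of -1.05 and -0.95 in Arf-B cells and -1.01 and -0.91 in Arf-C. Zc3h13 measured 25.4, 32.8 and 24.97 in Ctrlv2 at day 0 against 15.5, 13.7 and 17.7 in Arf-B cells and 16.8, 14.03 and 14.9 in Arf-C, and at day 8 29.6, 28.8 and 25.7 against 15.6, 15.3 and 16.5 and 14.4, 16.6 and 16.1. Its ratios ran from -0.86 to -0.83, and again no Arf library reached a Ctrlv2 library. Ints9, the partner of Integrator's catalytic subunit, followed at -1.08 and -1.03 in Arf-B cells and -1.03 and -0.93 in Arf-C.

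The most abundant following members covered several roles. Elp3, the catalytic subunit of the Elongator complex that modifies transfer RNA, had ratios from -1.25 to -0.84. Itm2b, a membrane protein processed into a secreted peptide, had -1.21 to -0.82. Trim35, a ubiquitin ligase of the tripartite motif family, had -1.49 to -1.23, and Ppp2r2a, a regulatory subunit of protein phosphatase 2A, had -1.04 to -0.70. Bnip3l, a receptor for the removal of mitochondria, had -1.21 to -0.91. Sugt1, a co-chaperone needed at the kinetochore, had -1.13 to -0.95, and Pbk, a mitotic kinase, had -1.28 to -0.92.

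**Figure D2:**
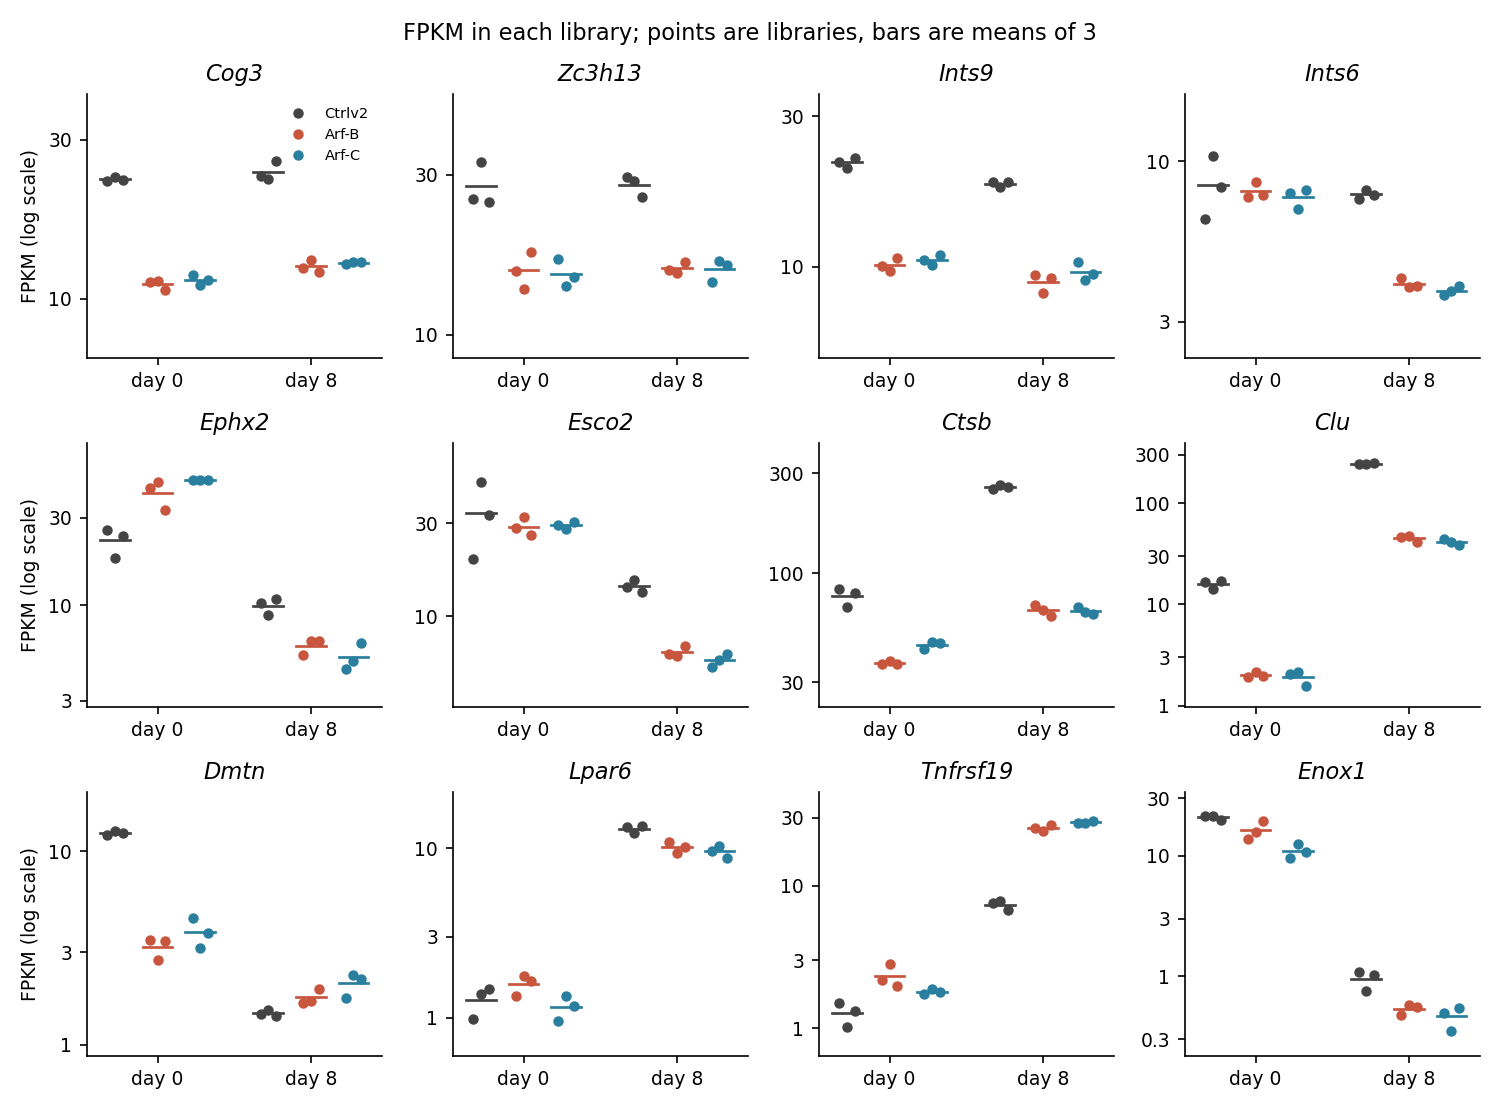
FPKM on a log axis of 12 members in each library, by line and day. Points are libraries and bars are means of 3. Cog3, Zc3h13 and Ints9 lie lower in every Arf library on both days, Ephx2 and Esco2 differ between the days, and Tnfrsf19 lies higher in the Arf libraries.

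The 5 members with all 4 ratios above -0.5 were Gm49336, Mtmr6, Tnfrsf19, Lpar6 and Kbtbd7, and the first 3 lie before Ebpl. They were not all close to Ctrlv2: at day 0 the ratio of Gm49336 was 1.16 for Arf-B and 1.24 for Arf-C. Tnfrsf19, a receptor of the tumour necrosis factor receptor family, measured 1.52, 1.03 and 1.31 FPKM in Ctrlv2 at day 0, 2.20, 2.83 and 1.98 in Arf-B cells and 1.73, 1.88 and 1.78 in Arf-C. At day 8 it measured 7.60, 7.77 and 6.72 in Ctrlv2, 25.4, 24.3 and 26.5 in Arf-B cells and 27.6, 27.6 and 28.5 in Arf-C. Its Arf libraries lay above all Ctrlv2 libraries on both days, by ratios of 0.86 and 1.79 in Arf-B cells and 0.48 and 1.92 in Arf-C. Mtmr6, a phosphatase of membrane lipids, had ratios of -0.07 and -0.34 in Arf-B cells and 0.14 and -0.39 in Arf-C.

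Lpar6 and Kbtbd7 lie among members that were low. Lpar6 measured 0.976, 1.37 and 1.48 FPKM in Ctrlv2 at day 0, 1.34, 1.76 and 1.64 in Arf-B cells and 0.953, 1.35 and 1.18 in Arf-C, with overlapping groups. At day 8 it measured 13.3, 12.3 and 13.6 in Ctrlv2, 10.9, 9.38 and 10.2 in Arf-B cells and 9.62, 10.4 and 8.78 in Arf-C, so every Arf library lay below. Its ratios were 0.31 and -0.36 in Arf-B cells and -0.14 and -0.44 in Arf-C. Lpar6 lies within Rb1 on the opposite strand, over 5400 bases, and no source used here says whether reads were counted by strand, so reads of the genes cannot be told apart. Without replicate 2 of Arf-C at day 8 Lpar6 left this class, and without replicate 1 of Ctrlv2 at day 0 Kbtbd7, an adaptor of a ubiquitin ligase, left it. Kbtbd7 had ratios of -0.28 and -0.31 in Arf-B cells and -0.44 and -0.35 in Arf-C.

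The 8 members below -1.5 in all 4 ratios were Clu, Loxl2, Bmp1, Dleu7, Serp2, Gulo, Bin3 and Esd. Clu, a secreted chaperone, measured 16.7, 14.2 and 16.8 FPKM in Ctrlv2 at day 0, 1.92, 2.14 and 1.95 in Arf-B cells and 2.06, 2.15 and 1.56 in Arf-C. At day 8 it measured 241, 243 and 248 in Ctrlv2, 46.7, 47.8 and 41.2 in Arf-B cells and 44.5, 41.6 and 38.1 in Arf-C. The groups did not overlap, and the ratios were -2.99 and -2.43 in Arf-B cells and -3.05 and -2.56 in Arf-C. Loxl2, which cross-links collagen, had ratios of -3.14 and -1.87 in Arf-B cells and -2.88 and -2.09 in Arf-C.

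In the same class, Bmp1, a protease that matures procollagen, had ratios from -2.58 to -1.60, and Dleu7 from -3.38 to -1.78. Serp2, a small protein of the endoplasmic reticulum, had -3.08 to -1.60, and Gulo, the last enzyme of vitamin C synthesis, had -2.03 to -1.76. Esd, an esterase, had -1.85 to -1.52, and Bin3, a membrane-curving adaptor, had -1.83 to -1.72. Esd left the class when replicate 3 of Ctrlv2 at day 0 was left out, and when replicate 1 of Arf-C at day 0 was. Serp2 left it without Ctrlv2 replicate 1, and without Arf-C replicate 3, of day 8. The parietal and visceral endoderm list (Sparc, Lama1, Lamb1, Col4a1, Dab2, Afp, Ttr and Amn) summed to 126 to 145 FPKM in Ctrlv2 at day 0, 47.0 to 56.2 in Arf-B cells and 48.1 to 52.8 in Arf-C. At day 0 most of each sum was Sparc and Lama1, and Dab2, Ttr and Afp were under 0.5 FPKM in every group. At day 8 the list summed to 335 to 449, 101 to 104 and 101 to 112, with Afp under 0.5 FPKM in every group. Sparc, Lama1, Lamb1, Col4a1 and Dab2 were then lower in both Arf lines, as was Ttr, which was under 0.5 FPKM in both. Amn was higher, with averages of 0.651 FPKM in Ctrlv2, 0.985 in Arf-B cells and 1.01 in Arf-C. Whether cells of this type have a part in the levels of Clu, Loxl2 and Bmp1 was not tested.

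In 10 members the ratio lay above -0.5 at day 0 and from -1.5 to -0.5 at day 8, in each line. Among them were Ephx2, Rcbtb2, Ints6, Esco2, Neil2, Fndc3a, Kpna3 and Wdfy2. Ephx2, the soluble epoxide hydrolase, measured 25.9, 18 and 23.8 FPKM in Ctrlv2 at day 0, 43.8, 47.0 and 33.0 in Arf-B cells and 48.4, 48.4 and 48.1 in Arf-C. At day 8 it measured 10.2, 8.83 and 10.8 in Ctrlv2, 5.31, 6.37 and 6.36 in Arf-B cells and 4.45, 4.94 and 6.18 in Arf-C. Every Arf library was above Ctrlv2 at day 0 and below it at day 8, with ratios of 0.87 and -0.73 in Arf-B cells and 1.10 and -0.94 in Arf-C.

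Ints6 measured 6.48, 10.4 and 8.26 FPKM in Ctrlv2 at day 0, 7.63, 8.58 and 7.76 in Arf-B cells and 7.87, 6.99 and 8.08 in Arf-C. At day 8 it measured 7.55, 8.06 and 7.79 in Ctrlv2, 4.17, 3.89 and 3.93 in Arf-B cells and 3.67, 3.79 and 3.92 in Arf-C. The groups overlapped at day 0 and separated at day 8. Esco2, which acetylates cohesin so that sister chromatids hold together, measured 19.8, 48.9 and 33.0 in Ctrlv2 at day 0, a spread that took in all 6 Arf libraries (26.1 to 32.2). At day 8 it measured 14.1, 15.3 and 13.4 in Ctrlv2 against 6.37, 6.24 and 7.03 in Arf-B cells and 5.49, 5.94 and 6.43 in Arf-C.

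Over the members, replicates 1 and 2 of Ctrlv2 at day 0 lay farthest from the other libraries of their group (SD of the log2 difference 0.221 and 0.229, against 0.101 to 0.164 for the other 16 libraries). Replicate 2 stood at 1.85 times the mean of the other 2 for Esco2, 1.41 for Ints6 and Fndc3a, 1.35 for Kpna3 and 0.724 for Ephx2. Without replicate 2 the day 0 ratios in Arf-B and Arf-C were 0.13 and 0.15 for Esco2, 0.12 and 0.05 for Ints6, and 0.73 and 0.96 for Ephx2. Esco2 and Kpna3 left the group without replicate 1. Wdfy2 left it without replicate 2 or 3 of Ctrlv2, and also without replicate 1 or 2 of Arf-B, at day 0.

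The opposite order, below -1.5 at day 0 and from -1.5 to -0.5 at day 8 in each line, held in 8 members: Scara3, 9930012K11Rik, Sorbs3, Ppp3cc, Slc39a14, Hr, Tsc22d1 and Lacc1. Sorbs3, the cell adhesion adaptor vinexin, measured 17.1, 12.96 and 16.5 FPKM in Ctrlv2 at day 0, 2.05, 1.72 and 1.54 in Arf-B cells and 2.72, 2.52 and 2.51 in Arf-C. At day 8 it measured 15.95, 19.3 and 17.5 against 6.49, 7.44 and 7.29 and 7.01, 7.32 and 6.74. No groups overlapped, and the ratios were -3.13 and -1.31 in Arf-B cells and -2.58 and -1.32 in Arf-C. Ptk2b and Dmtn went from below -1.5 at day 0 to above -0.5 at day 8. Dmtn, an actin bundling protein, measured 12.1, 12.8 and 12.5 in Ctrlv2 at day 0, 3.46, 2.75 and 3.44 in Arf-B cells and 4.52, 3.16 and 3.76 in Arf-C. At day 8 it was 1.44, 1.51 and 1.40 in Ctrlv2, and all Arf libraries lay above, at 1.64, 1.68 and 1.95 and at 1.75, 2.29 and 2.19.

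Ctsb and Tpt1 lay within -1.5 to -0.5 at day 0 and below at day 8. Ctsb, the lysosomal protease cathepsin B, measured 83.9, 68.7 and 79.98 FPKM in Ctrlv2 at day 0, 36.8, 38.0 and 36.8 in Arf-B cells and 43.3, 46.7 and 46.2 in Arf-C. At day 8 it measured 253, 263 and 258 in Ctrlv2, 70.6, 66.9 and 62.1 in Arf-B cells and 68.6, 65.3 and 64.0 in Arf-C. The groups did not overlap on either day, and the ratio in Arf-B went from -1.06 to -1.95. Tpt1, the translationally controlled tumour protein and the most abundant member, averaged 1472 FPKM in Ctrlv2 at day 0 and 3566 at day 8, with ratios of -1.12 and -1.58 in Arf-B cells and -1.01 and -1.53 in Arf-C. Dgkh, a diacylglycerol kinase, went from -0.44 to -1.80 in Arf-B and from -0.29 to -1.72 in Arf-C.

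**Figure D3:**
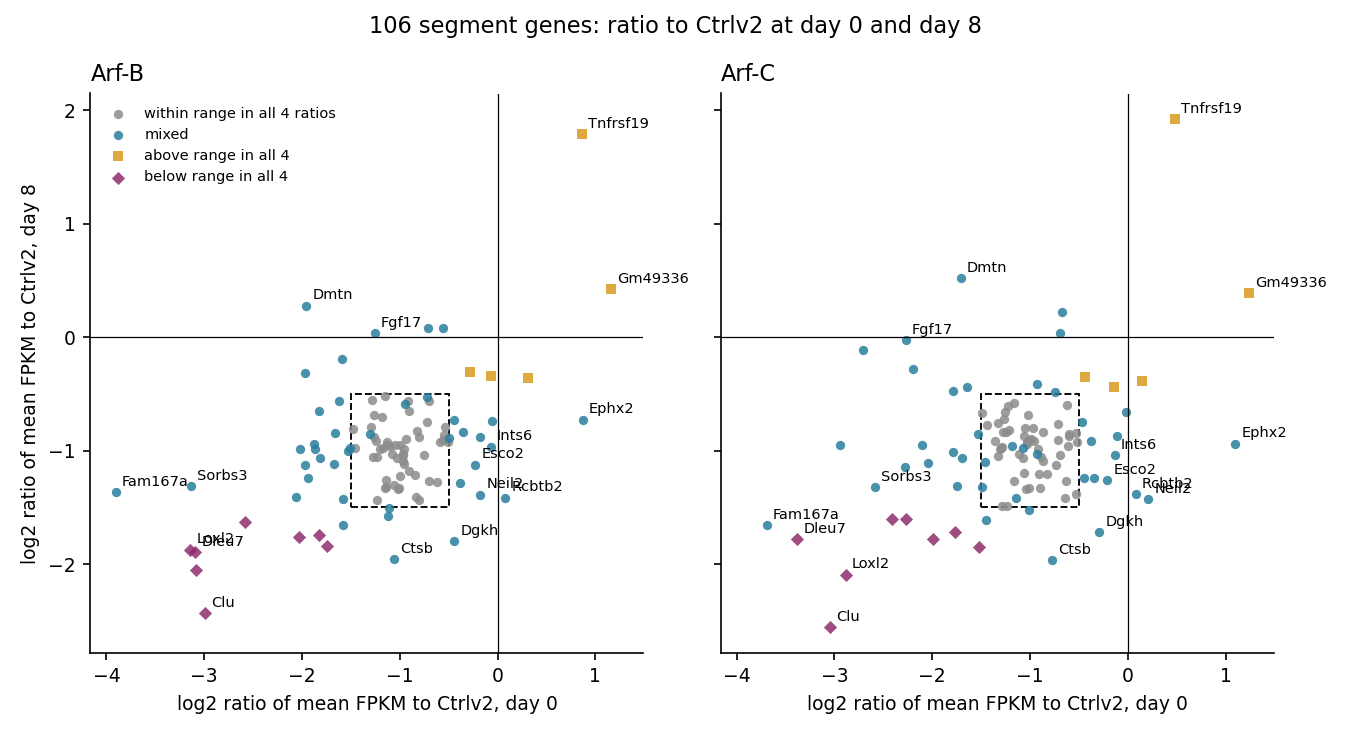
Log2 ratio of group mean FPKM at day 8 against day 0 for the 106 members, 1 panel per Arf line, coloured by class. The dashed box marks -1.5 to -0.5 on both axes. The points spread further along the day 0 axis, and Ephx2 and Rcbtb2 lie to the right of the box.

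The change from day 0 to day 8 within a line was not used to choose the members and was tested with limma on log2(FPKM + 1), with Benjamini-Hochberg adjustment over all 17200 genes. All 106 members passed the filter on low values. In Ctrlv2, 44 members rose and 42 fell, beside 33.9% and 34.4% of all genes. In Arf-B 43 rose and 46 fell (32.9% and 33.8% of all genes), and in Arf-C 41 rose and 40 fell (32.8% and 33.8%). Scaling every library to the same sum raised the median change of all genes by over 0.1, to 0.135 in Arf-B cells and 0.118 in Arf-C. With that scaling 51 members rose and 29 fell in Arf-B, beside 7073 and 4234 of all 17255 genes tested. Most members that changed in Ctrlv2 changed in the same direction in the Arf lines, which share no library with it, as did most of all genes tested. Of the 44 that rose in Ctrlv2, 32 rose and 4 fell in Arf-B cells and 31 rose and 4 fell in Arf-C. The same-direction shares were 72.7% and 70.5%, beside 74.6% and 72.4% of all genes that rose in Ctrlv2. Of the 42 that fell in Ctrlv2, 34 fell and 3 rose in Arf-B, and 29 fell and 2 rose in Arf-C. Here the shares were 81.0% and 69.0%, beside 74.9% and 72.2%.

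The list of undifferentiated stem cell genes summed to 4790 to 4869 FPKM in Ctrlv2 at day 0, 4035 to 4264 in Arf-B cells and 3907 to 4662 in Arf-C. At day 8 it summed to 105 to 135 in Ctrlv2 but to 651 to 880 in Arf-B cells and 543 to 910 in Arf-C, and none of its 8 genes lay under 0.5 FPKM in any group. The trophoblast list summed to 165 to 188 at day 8 in Ctrlv2, 60.7 to 79.3 in Arf-B cells and 58.2 to 82.5 in Arf-C. Most of each sum was Krt8, which averaged 165 FPKM in Ctrlv2, 56.6 in Arf-B cells and 53.0 in Arf-C. Of the rest, Gata3 and Eomes were lower in both Arf lines, and Tfap2c and Cdx2 were higher. Krt7 averaged 3.11 FPKM in Ctrlv2, 3.09 in Arf-B cells and 2.75 in Arf-C, and Hand1 averaged 1.03, 1.22 and 1.03. Elf5 was under 0.5 FPKM in each group. The definitive endoderm and foregut list summed at day 8 to 18.01 to 22.9 in Ctrlv2, 20.4 to 22.6 in Arf-B cells and 22.4 to 24.6 in Arf-C, with Cer1, Hnf4a and Cxcr4 under 0.5 FPKM in each of these groups. Sox17 was under 0.5 FPKM in both Arf lines, and Pdx1 in Ctrlv2 and Arf-C. Genes of this list moved in both directions. Foxa1 averaged 3.62 FPKM in Ctrlv2, 10.6 in Arf-B cells and 10.8 in Arf-C, and Foxa2 was also higher in both Arf lines. Gata6 averaged 6.47, 2.28 and 2.68, and Prox1 and Sox17 were also lower. The mesoderm and fibroblast list summed at day 8 to 19.8 to 28.0 in Ctrlv2, 6.55 to 8.49 in Arf-B cells and 7.02 to 7.65 in Arf-C. Most of that difference was Acta2, which averaged 15.7 FPKM in Ctrlv2, 1.62 in Arf-B cells and 1.36 in Arf-C. Pdgfra, Col1a2, Tbx6 and Col1a1 were also lower in both Arf lines, while Thy1, T and Mesp1 were higher. Mesp1 was under 0.5 FPKM in each group, and T in Ctrlv2. The neural list summed at day 8 to 21.0 to 22.9 in Ctrlv2, 15.8 to 16.6 in Arf-B cells and 14.4 to 15.4 in Arf-C. Most of each sum was Nes and Tubb3, which were lower in both Arf lines, as was Sox1. Pax6 averaged 0.891 FPKM in Ctrlv2, 2.71 in Arf-B cells and 2.16 in Arf-C, and Map2 was also higher in both. Neurog2 was under 0.5 FPKM in each group. Genes of these lists moved with the days and the lines, and their part in the changes of members was not tested.

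Among 14 ligands, receptors and secreted proteins, more rose than fell. In Ctrlv2, 9 rose and 3 fell, beside 33.9% and 34.4% of all genes. The counts were 10 and 3 in Arf-B (32.9% and 33.8%) and 9 and 3 in Arf-C (32.8% and 33.8%). This list and those below are small and were drawn up with earlier results known, and none was tested as a set. Clu rose by a log2 difference of 3.86 in Ctrlv2 (SE 0.0866, adjusted p = 4.99e-15), 3.94 in Arf-B cells and 3.86 in Arf-C. The difference between the rises was 0.08 in Arf-B (adjusted p = 0.659) and 0.00 in Arf-C (adjusted p = 0.998). Those values depend on the pseudocount, since Clu was at about 2 FPKM in the Arf lines at day 0: on the ratio of means without one, its ratio was higher at day 8 than at day 0 by 0.56 for Arf-B and 0.49 for Arf-C. Lpar6 rose by 2.63 in Ctrlv2, 2.11 in Arf-B cells and 2.30 in Arf-C. Fgf17, a fibroblast growth factor of the early embryo, measured 10.7, 11.5 and 10.7 FPKM in Ctrlv2 at day 0, 3.43, 3.95 and 6.36 in Arf-B cells and 2.12, 2.01 and 2.68 in Arf-C. By day 8 it was between 0.374 and 1.17 FPKM in all 9 libraries, with overlapping groups, and it fell in all 3 lines.

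Among 9 members of cell division and DNA maintenance, more fell than rose. In Ctrlv2, 7 fell and 2 rose, beside 34.4% and 33.9% of all genes. The counts were 8 and 1 in Arf-B (33.8% and 32.9%) and 7 and 1 in Arf-C (33.8% and 32.8%). Sugt1 changed by -1.21 in Ctrlv2 (SE 0.0531, adjusted p = 9.39e-12), -1.01 in Arf-B cells and -1.10 in Arf-C. Cdca2, which recruits a phosphatase to chromosomes at the end of mitosis, changed by -1.10, -0.90 and -0.83 in the same order (SE 0.0752 each), and Pbk by -0.75, -0.42 and -0.42. Esco2 had day differences of -1.10 in Ctrlv2 (SE 0.205, adjusted p = 0.00019), -1.98 in Arf-B cells and -2.13 in Arf-C. Neil2, a DNA glycosylase of base excision repair, rose by 0.52 in Ctrlv2 but fell in the Arf lines, with changes of -0.50 in Arf-B cells and -0.86 in Arf-C.

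Among 20 members of transcription, chromatin and nuclear RNA, 8 rose and 7 fell in Ctrlv2, beside 33.9% and 34.4% of all genes. The counts were 5 and 9 in Arf-B (32.9% and 33.8%) and 5 and 6 in Arf-C (32.8% and 33.8%). Rcbtb2, a protein with repeats like those of a nuclear exchange factor, rose in each line, by 3.02, 1.67 and 1.70. Med4, a subunit of Mediator, rose in Ctrlv2 by 0.75 and had differences of 0.13 and 0.00 in Arf-B and Arf-C that did not pass the test. Tsc22d1, a leucine zipper regulator, fell in each line, with changes of -1.16, -0.29 and -0.39. Of 21 members of mitochondria, metabolism and transport, 8 rose and 9 fell in Ctrlv2, with 10 and 8 in each of Arf-B and Arf-C. The shares of all genes beside these counts are those just given for each line. Enox1, an oxidase of the cell surface, fell most in Ctrlv2, with a change of -3.49, and fell in the Arf lines too, with changes of -3.48 in Arf-B cells and -3.03 in Arf-C. It overlaps the pseudogene Gm10132 on the opposite strand over 468 bases.

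The remaining lists were mixed. Of 10 cytoskeleton and adhesion members 6 rose and 2 fell in Ctrlv2, of 13 kinases, phosphatases and adaptors 3 rose and 7 fell, and of 12 in protein turnover and membrane traffic 5 rose and 3 fell. Of the 7 members in no list 3 rose and 4 fell, and of all genes 33.9% rose and 34.4% fell in Ctrlv2. Ptk2b, a kinase of the focal adhesion family, fell in each line, with changes of -2.33 in Ctrlv2, -1.11 in Arf-B cells and -0.73 in Arf-C. Sorbs3 had a difference of 0.18 in Ctrlv2 that did not pass the test and rose by 1.55 in Arf-B cells and 1.16 in Arf-C. At day 8 the median ratio over members that rose in Ctrlv2 was -1.08 for Arf-B and -1.10 for Arf-C, and over those that fell it was -0.93 and -0.87. These medians share the Ctrlv2 libraries with the day calls, and their difference was not tested.

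The day response of each Arf line was then compared with that of Ctrlv2, which asks whether a member's ratio moved between the days. The choice of members fixed no such difference. Compared with Ctrlv2, the response was called more positive for 28 members and more negative for 26 in Arf-B, beside 17.5% and 16.1% of all genes. In Arf-C it was more positive for 31 and more negative for 32, beside 19.4% and 18.9%. Of the 13027 genes at a mean of 1 FPKM or more, 2495 were more positive and 2503 more negative in Arf-B. In Arf-C the counts were 2796 and 2943. With every library scaled to the same sum, the counts were 31 and 21 in Arf-B (beside 21.2% and 11.8% of all genes) and 31 and 26 in Arf-C (21.4% and 15.5%). The 2 comparisons share the Ctrlv2 libraries and are given side by side. On the ratio of means without a pseudocount, 52 of the 54 called in Arf-B cells and 60 of the 63 in Arf-C had the same sign, with Scara3 and Bmp1 opposite in both and Enox1 in Arf-C.

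**Figure D4:**
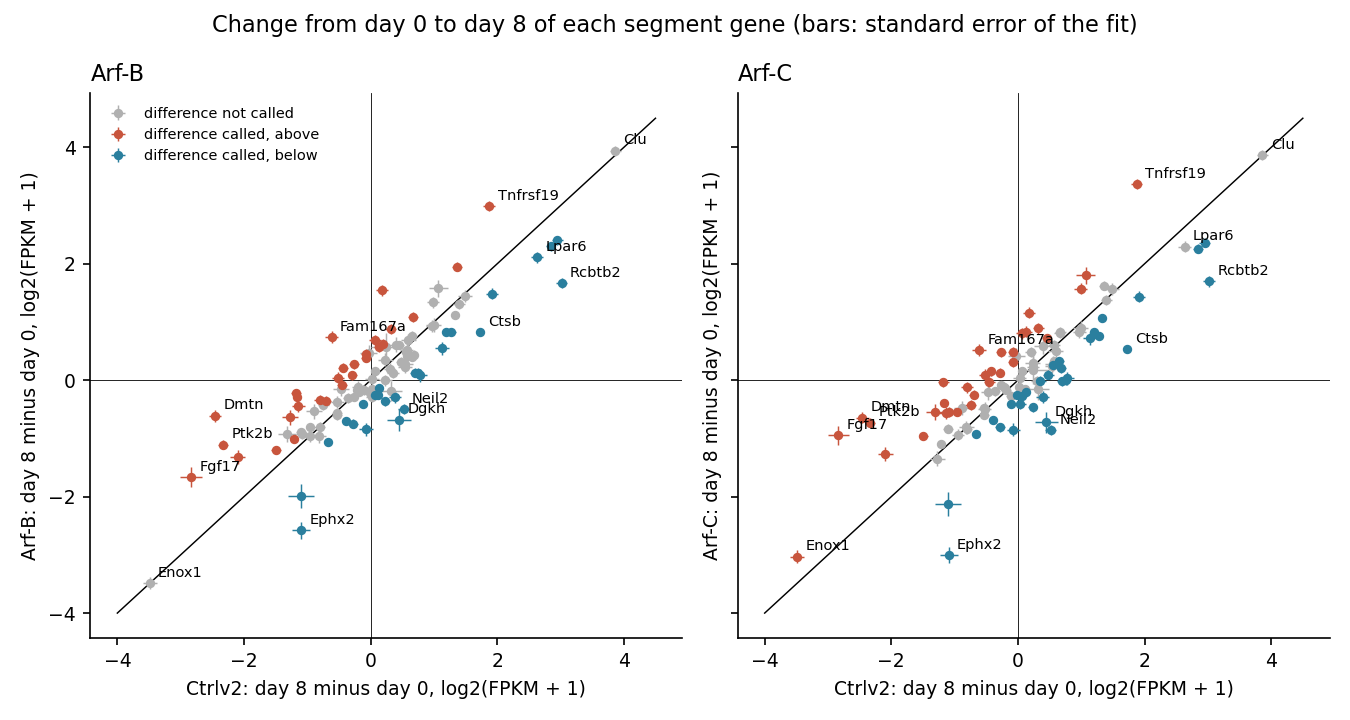
Day 8 minus day 0 on log2(FPKM + 1) in each Arf line against the same in Ctrlv2 for the 106 members, with bars of 1 SE and colours for a called difference between the responses. On this scale, with its pseudocount of 1, Clu lies close to the diagonal, Rcbtb2 and Ctsb below it, and Dmtn and Ptk2b above it.

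Ranked by the smaller of the 2 lines' differences, the 5 most positive belonged to Dmtn, Ptk2b, Fgf17, Fam167a and Tnfrsf19. For Dmtn the difference was 1.85 in Arf-B (SE 0.142, adjusted p = 2.12e-07) and 1.82 in Arf-C (adjusted p = 1.97e-07), beside day changes of -2.46 in Ctrlv2, -0.61 in Arf-B cells and -0.64 in Arf-C. For Ptk2b it was 1.23 (SE 0.110, adjusted p = 9.87e-07) and 1.605 (adjusted p = 5.7e-08), and for Fgf17 1.17 (SE 0.237, adjusted p = 0.00134) and 1.89 (adjusted p = 1.92e-05). Fam167a measured 6.47, 4.86 and 5.74 FPKM in Ctrlv2 at day 0 and 3.78, 3.35 and 2.94 at day 8. It measured 0.348, 0.309 and 0.481 in Arf-B at day 0 and 1.25, 1.12 and 1.53 at day 8, and 0.405, 0.498 and 0.418, then 0.976, 1.29 and 0.927, in Arf-C. Fam167a fell in Ctrlv2 and rose in both Arf lines, with differences of 1.35 (SE 0.149, adjusted p = 6.93e-06) and 1.13 (adjusted p = 2.94e-05), and every Arf library stayed below every Ctrlv2 library. Tnfrsf19 rose by 1.87, 2.99 and 3.37, with differences of 1.12 (SE 0.128, adjusted p = 1.05e-05) and 1.496 (adjusted p = 4.97e-07).

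Ranked in the same way, the 5 most negative belonged to Ephx2, Rcbtb2, Dgkh, Neil2 and Ctsb. Ephx2 had differences of -1.49 in Arf-B (SE 0.200, adjusted p = 4.72e-05) and -1.91 in Arf-C (adjusted p = 3.89e-06). Rcbtb2 measured 1.66, 1.30 and 1.64 FPKM in Ctrlv2 at day 0, 1.74, 1.66 and 1.46 in Arf-B cells and 1.41, 1.72 and 1.73 in Arf-C. At day 8 it measured 17.8, 21.6 and 19.2 against 7.64, 7.52 and 6.82 and 7.96, 7.72 and 6.82. Rcbtb2 thus overlapped between lines at day 0 and separated at day 8, with differences of -1.35 (SE 0.124, adjusted p = 1.17e-06) and -1.32 (adjusted p = 1.2e-06). It overlaps Rb1 on the opposite strand. Neil2 had differences of -1.02 (SE 0.122, adjusted p = 1.47e-05) and -1.38 (adjusted p = 6.49e-07). Ctsb, which overlaps Fdft1 on the opposite strand over 774 bases, had -0.91 (SE 0.0952, adjusted p = 4.43e-06) and -1.20 (adjusted p = 2.33e-07). Dgkh had -1.13 (SE 0.264, adjusted p = 0.00401) and -1.18 (adjusted p = 0.00258), and its day change in Ctrlv2 of 0.45 (adjusted p = 0.0428) lost its call in 14 of 25 alternatives.

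The difference in day response did not pass the test for Cog3 (adjusted p = 0.373 and 0.376 in Arf-B and Arf-C), Zc3h13 (0.994 and 0.944), Ints9 (0.691 and 0.39) and Rnaseh2b (0.88 and 0.95) by limma. A p above the threshold does not show that these responses are equal. For Ints6 the differences were -0.77 (adjusted p = 0.00112) and -0.78 (adjusted p = 0.00093): the gene fell in both Arf lines (-0.85 each) and had a day change of -0.07 in Ctrlv2 that did not pass the test. For Esco2 they were -0.88 (adjusted p = 0.0291), a call lost in 8 of 25 alternatives with adjusted p from 0.0501 to 0.0684, and -1.02 (adjusted p = 0.0117).

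Arf-B and Arf-C were close to each other over the members. Their log2 ratios to Ctrlv2 lay less than 0.5 apart for 95 members at day 0 and for all 106 at day 8, though the shared Ctrlv2 libraries cancel from that difference. In the direct test at day 0, 1 member was higher in Arf-B cells and 1 lower, beside 0.105% and 0.238% of all genes. Ptk2b measured 2.87, 2.59 and 2.63 FPKM in Arf-B cells and 1.89, 1.62 and 1.80 in Arf-C at day 0 (log2 difference 0.42, SE 0.0781, adjusted p = 0.0293). Scara5, a scavenger receptor that takes up ferritin, measured 1.03, 1.15 and 1.04 against 2.21, 2.43 and 2.15 (log2 difference -0.66, SE 0.124, adjusted p = 0.0293). Neither pair of groups overlapped, but the call on Ptk2b was lost in 8 alternatives (adjusted p from 0.0574 to 0.114) and that on Scara5 in 9 (0.0548 to 0.138), among them every setting that left out 1 of these libraries. At day 8 the direct test called 0 members in either direction by limma, beside 0.0349% and 0.0233% of all genes. At an unadjusted p below 0.05 it gave 18 members at day 0 (17.0%, against 11.01% of all genes) and 4 at day 8 (3.77% against 5.30%), and limma with precision weights on recovered reads called 5 at day 0 and 0 at day 8.

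The segment encodes 13 subunits of complexes from a list of textbook complexes, and 83 partner subunits encoded on other chromosomes were tested. Of these, 2 belong to a complex with no member. Partners lay around the level of Ctrlv2: their median ratio was 0.01 and -0.02 in Arf-B at day 0 and day 8 and 0.02 and -0.02 in Arf-C. In Arf-B 16 partners were called higher and 15 lower at day 0 (beside 19.1% and 20.0% of all genes), and 10 higher and 17 lower at day 8 (16.3% and 16.9%). In Arf-C the counts were 19 and 18 at day 0 (21.2% and 21.5%) and 14 and 14 at day 8 (16.8% and 16.8%). Leaving out replicate 3 of Ctrlv2 at day 0 brought the 31 partners called in Arf-B at day 0 to 18, and leaving out replicate 1 of Arf-B to 20. With the same sum in every library the day 8 counts in Arf-B were 23 higher and 8 lower, beside 4304 and 1938 of all 17255 genes. Ratios under -0.5 occurred in 2 or 3 of the 83 partners in each comparison.

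In Integrator, which cleaves nascent RNA, Ints9 was low on both days and Ints6 at day 8, while the 12 partners at day 0 in Arf-B ranged from -0.29 to 0.40. In Mediator, which links activators to RNA polymerase, Med4 had ratios of -0.80 and -1.44 in Arf-B, and its 24 partners had medians of 0.04 and 0.05. In the COG complex, which tethers vesicles at the Golgi, the 7 partners of Cog3 had medians of -0.09 and -0.01. In the mRNA methylation complex the 5 partners of Zc3h13 had medians of 0.28 and 0.13, and Wtap, its targeting subunit, was called higher at day 0 by 0.18 in Arf-B (SE 0.0617, limma adjusted p = 0.031) and at day 8 by 0.34.

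A few partners were low as well. RNA polymerase III, which makes transfer RNA, has its subunit Polr3d in the segment (ratios -1.11 and -1.51 in Arf-B). Its partner Polr3gl on chromosome 3 averaged 19.0 FPKM in Ctrlv2 at day 0, 9.08 in Arf-B cells and 8.73 in Arf-C, and was called lower in Arf-B at day 0 (difference of -0.99 on log2(FPKM + 1), SE 0.0777, limma adjusted p = 9.19e-08). Gtf2f1 on chromosome 17, the partner of Gtf2f2 in the initiation factor TFIIF, had differences of -0.21 in Arf-B at day 0 (adjusted p = 0.0365) and -0.59 at day 8 (adjusted p = 2.46e-05). Suclg2 on chromosome 6, which competes with Sucla2 for the shared subunit of succinyl-CoA ligase, was higher by 0.63 (SE 0.0661, adjusted p = 2.05e-06) and 0.50 in Arf-B at day 0 and day 8, while Sucla2 had ratios of -0.56 and -0.90.

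**Figure D5:**
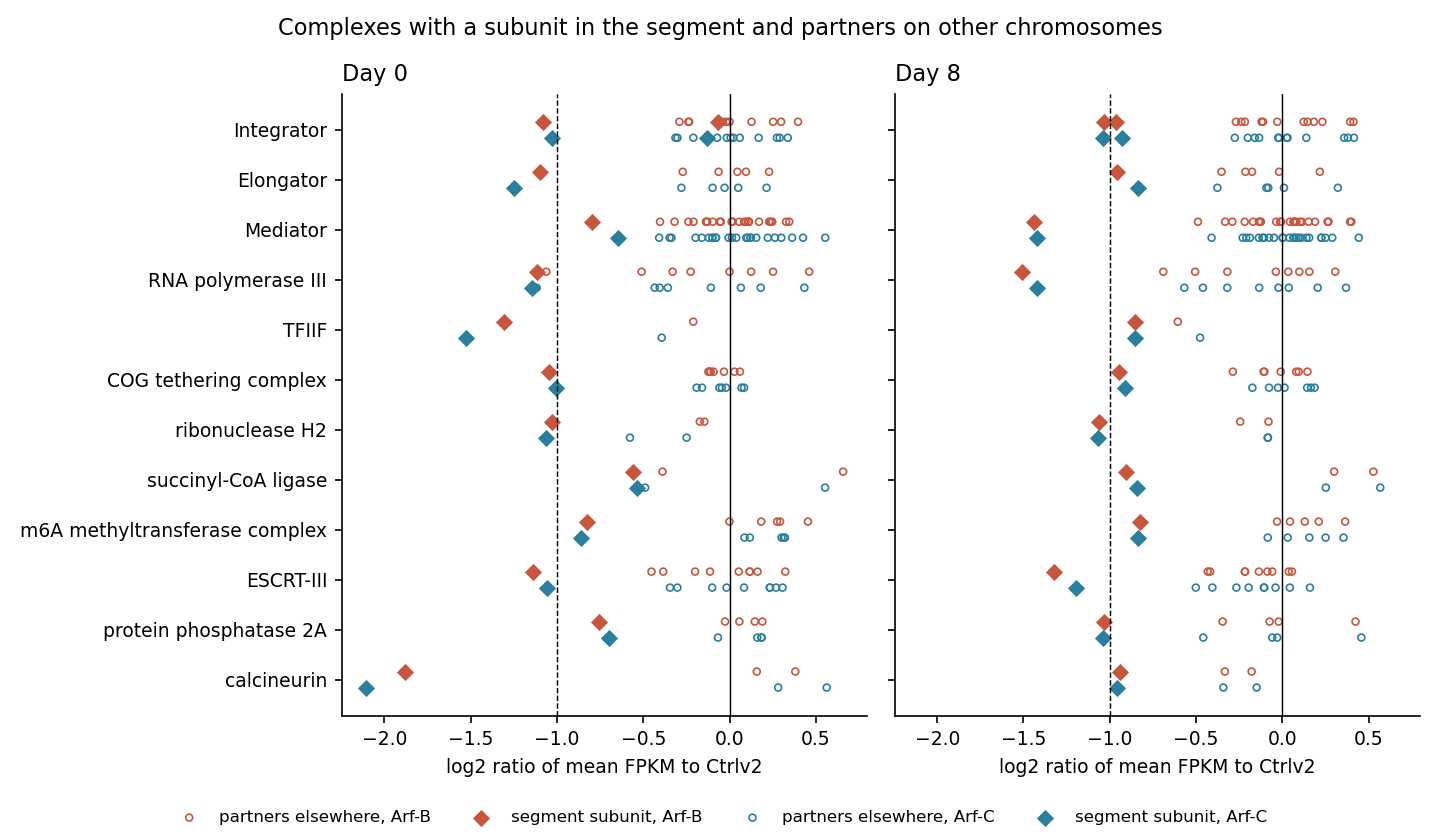
Log2 ratio of group mean FPKM for subunits encoded in the segment (diamonds) and their partners on other chromosomes (open circles), by complex, for both lines and both days. Most diamonds lie near -1 and the partners scatter around 0, with Polr3gl the partner farthest below.

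Some members share a start region or overlap. The annotation held 4 pairs of members with divergent starts less than 1000 bases apart. Hmbox1 and Ints9 start 174 bases apart and had ratios of -0.97 and -1.08 in Arf-B at day 0 and -1.10 and -1.03 at day 8. Cdca2 and Kctd9 start 96 bases apart and differed at day 8, at -0.53 and -1.27. Gpalpp1 and Nufip1 (131 bases) had -1.14 and -0.97 at day 0 and -1.26 and -1.03 at day 8. Lacc1 and Ccdc122 (132 bases) differed at day 0, at -1.94 and -0.84. In all, 27 members overlap another gene at 0.1 FPKM or more, 22 of them one on the opposite strand, and their levels are uncertain to that extent.

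Genes of the segment outside the rule varied more widely than the members, whose SD in Arf-B was 0.814 at day 0 and 0.550 at day 8. The 14 genes that do not code for protein and reached a mean of 1 FPKM had median ratios of -0.67 and -0.85 in Arf-B cells and -0.99 and -0.72 in Arf-C. The SD over these genes in Arf-B was 1.02 at day 0 and 1.79 at day 8. Among them Mir124a-1hg, the host gene of a neural microRNA, was chosen for mention after its values were seen: it had ratios of -1.86 at day 0 and 4.75 at day 8 in Arf-B and of -1.18 and 4.84 in Arf-C. With the 8 genes left out by name included, the median ratios over the members were -1.06 and -0.99 in Arf-B cells and -1.04 and -0.98 in Arf-C.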

How the data were processed

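Polyadenylated RNA was sequenced in 18 libraries (3 lines, 2 days, 3 replicates each). The deposited values are FPKM that the authors computed per gene. The submitters' processing notes name HISAT2, featureCounts, DESeq2 and mm10, with no versions; strand settings are not given in the sources used here. FPKM was multiplied by gene length and divided by the value of 1 read, which was estimated for each library from these same values. The result was whole reads for all 413772 values above 0 (largest deviation 4.77e-05, tolerance 0.001), or 10432590 to 33311220 reads on genes per library. Of the 106 members, 105 had reads in every library, and Scara3 was at 0 in replicate 1 of Arf-C at day 0.

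Tests used limma 3.58.1 (R 4.3.3, statmod 1.5.0) on log2(FPKM + 1) of the 17200 genes that reached 0.5 FPKM in 3 or more libraries, with 1 coefficient per group, trend and robust moderation, Benjamini-Hochberg adjustment over all genes and a threshold of 0.05. Fold differences named "ratio" are log2 ratios of group mean FPKM without pseudocount. Tables and figures used Python 3.11.15, pandas 2.3.3, numpy 2.4.6 and matplotlib 3.10.9, and the fit was tested on simulated data. Promoters came from RefSeq.

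The members, lists, tests and naming rule were chosen with earlier results of these data known. Named were members near or lower in all 4 ratios, the 4 most abundant of each role, the 5 largest day changes of Ctrlv2 per direction, per direction the 5 largest differences in day response among members called in both lines, members called between Arf lines, members at the thresholds and subunits of listed complexes. Other named members show a pattern of ratios over the days or share a start, and were picked after their values were seen. Results for some single members are not reported here, and these members stay in the counts and medians.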

Additional observations from a re-analysis of the deposited data

Results flagged for a closer look

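The following members are listed because their day response differed between an Arf line and Ctrlv2 by the limma interaction test itself, on log2(FPKM + 1) and with adjustment over all genes. More positive responses were found for Dmtn (1.85 in Arf-B and 1.82 in Arf-C), Ptk2b (1.23 and 1.605), Fgf17 (1.17 and 1.89), Fam167a (1.35 and 1.13) and Tnfrsf19 (1.12 and 1.496). More negative responses were found for Ephx2 (-1.49 and -1.91), Rcbtb2 (-1.35 and -1.32), Dgkh (-1.13 and -1.18), Neil2 (-1.02 and -1.38) and Ctsb (-0.91 and -1.20). Both comparisons use the same 6 Ctrlv2 libraries. These 20 calls held in all 25 alternatives.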

How the results depend on the processing

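Of 125 calls on named genes, 101 were kept in all 25 alternatives. The count of members called between Arf-B and Arf-C at day 0 (2) became 0 with a pseudocount of 0.1, 1 without the filter on low values, 1 with the replicate block, 5 with precision weights, and 0 to 3 without 1 library. The partners called in Arf-B at day 0 (31) ranged from 18 to 32 without 1 library. Median ratios, in the order Arf-B day 0 and day 8, Arf-C day 0 and day 8, were -0.91, -0.86, -0.82 and -0.83 with log2(FPKM + 1) averaged. With the same sum in every library they were -0.86 in Arf-B at day 8, and -1.02 and -0.87 in Arf-C at day 0 and day 8. Over members at a mean of 5 FPKM they were -0.97 in Arf-B at day 0 and -0.92 and -0.99 in Arf-C. From Ebpl on, an alternative chosen after seeing the data, they were -1.12 in Arf-B at day 0 and -0.98 in Arf-C at day 8. Without 1 library they ranged from -1.11 to -1.05, -0.99 to -0.97, -1.07 to -1.03 and -0.98 to -0.96. Signs of the difference in day response turned for genes under 1 FPKM in a group: Bmp1 went to 0.54 (Arf-B) and 0.33 (Arf-C) with a pseudocount of 0.1 and to 0.94 and 0.66 with precision weights, Scara3 to 0.0745 and 0.35 and to 0.80 and 2.26, and Enox1 in Arf-C to -0.14 with precision weights. The cause was not tested for any of these. Without 1 library, members called by day numbered 81 to 86 in Ctrlv2, 84 to 92 in Arf-B and 77 to 85 in Arf-C, and members with a different day response 50 to 57 in Arf-B and 54 to 66 in Arf-C.

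Replicate numbers did not pair the samples: over 45 same-number pairs the median correlation of deviations was 0.004 (range -0.251 to 0.203), and 8 of 18 libraries correlated best with their own number. With the replicate block, 83, 89 and 81 members were called by day in Ctrlv2, Arf-B and Arf-C, 1 and 0 between the Arf lines at day 0 and day 8, and 55 and 65 for the difference in day response. At day 0 and day 8, partners called were 32 and 27 for Arf-B, then 34 and 28 for Arf-C. Depth limits low members: on 1 kilobase, 3 reads stand for 0.093 to 0.282 FPKM, depending on the library.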
